A study of Mus musculus with 12 samples.

Results

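The amino acid synthesis and ATF4 response genes are a list of 38 genes chosen by symbol: the transcription factor Atf4 with its stress partners, and the enzymes, transporters and tRNA synthetases that supply and load amino acids. Each gene was read from its brightest probe set with 1 symbol, averaged over 12 arrays, which gave 36 of the 38 genes among 19938 genes measured. Pycr1 had no such probe set, and Aars was named only by a probe set shared with other genes. Each of the 36 had 1 probe set of this kind, and Mars was found under its current name, Mars1.

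The cells were mouse R1 embryonic stem cells, a cultured line, with RNA read on 1-colour Affymetrix arrays, 1 for each sample. Set, the knocked-down gene, encodes a histone chaperone that also inhibits the phosphatase PP2A. Differentiated groups (RA) were kept for 4 days without leukemia inhibitory factor, in 10% serum and 1 µM retinoic acid: the knockdown line KD1, the knockdown line KD2 and cells infected with a scrambled control. Stem cell groups (ESC) were the same 3 kinds of cell growing in 15% serum with 1000 U/ml of that factor. All groups had thus been infected, the medium is listed with non-essential amino acids, and RA and ESC differ in retinoic acid, serum and the inhibitory factor together. Each of the 6 groups had 2 arrays labelled as biological replicates. Each knockdown is 1 line and the labels speak of clones, so the knockdown and its line cannot be told apart, and p-values measure the spread between samples of the same lines. No batch or day is labelled.

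The integrated stress response starts when kinases phosphorylate the initiation factor eIF2, which lowers general translation and raises translation of the Atf4 message. ATF4 protein then binds, with C/EBP partners, to elements near genes for amino acid synthesis, transport and tRNA loading, and switches on Atf3, Ddit3 and Trib3. Mouse stem cells are known for heavy use of serine, threonine and folate metabolism while they divide. The arrays measured RNA, so ATF4 protein was not measured. In such bulk samples, fewer cells of a type and less RNA per cell cannot be told apart.

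Of the KD2 arrays, replicate 2 of ESC and replicate 2 of RA resembled the opposite state by their values, so counts of called genes are given with and without these displaced arrays. Across all genes the first correlated at 0.952 with ESC arrays and 0.986 with RA arrays, and matched RA KD2 replicate 1 best (0.998). The second correlated at 0.952 with RA arrays and 0.986 with ESC arrays, and matched ESC scrambled replicate 2 best (0.994). Over the 36 members, the ESC-labelled array lay nearer the RA mean for 31 genes and the RA-labelled array lay nearer the ESC mean for 32. Where the order of a gene's arrays is described below, the displaced arrays are left aside unless named. Without these arrays, 7 stem cell markers averaged 8.13 to 9.17 log2 units in RA arrays and 11.66 to 12.18 in ESC arrays. The Set signal, in a probe set shared with BC085271, read 11.28 and 11.16 log2 units in RA KD1, 11.70 in RA KD2 and 12.27 and 12.29 in RA scrambled cells. In ESC the same probe set read 12.13 and 11.94 in KD1, 12.15 in KD2 and 12.93 and 12.71 in scrambled cells. The displaced arrays read 11.99 (RA label) and 11.87 (ESC label), so every knockdown array read below the scrambled arrays of its labelled state. Probe sets annotated to Set alone were dim and gave no such order in RA, where 1 of them averaged 0.10 higher in KD1 than in scrambled cells on the log2 scale.

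The promoters of the measured members were searched for the core of the C/EBP-ATF response element, TGATGNAA, and for the cyclic AMP response element, TGACGTCA, on both strands. RefSeq windows of 250 bases before to 50 after the start, on GRCm38.p6, were matched for 29 of the 36 genes. A gene could have more than 1 window (mean 1.138 per member and 1.216 per gene). The Vldlr stretch below lies downstream of the gene's first listed base (27216480), before a later start. TGATGNAA occurred in 9 of the 29 (31%), against 4.51% of 27025 genes with windows, and TGACGTCA in 1 of 29 (3.45%, Ppp1r15a) against 2.03%. The 9 were Asns, Atf3, Chac1, Gars, Herpud1, Slc1a4, Slc7a11, Trib3 and Vldlr. Several of these are textbook ATF4 targets. A match is a run of letters, not a bound site. The following stretches, printed 5′ to 3′ on the gene's strand, are shown because their genes moved in opposite directions below while sharing these letters. Capitals mark the match, which reads as the reverse complement of TGATGNAA in all but Asns.
Asns, chr6:7693210-7693278, minus strand: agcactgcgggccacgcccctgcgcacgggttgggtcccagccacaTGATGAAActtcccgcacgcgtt
Chac1, chr2:119351003-119351102, plus strand: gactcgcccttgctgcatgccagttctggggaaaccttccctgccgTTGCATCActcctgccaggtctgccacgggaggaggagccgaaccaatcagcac
Atf3, chr1:191183390-191183489, minus strand: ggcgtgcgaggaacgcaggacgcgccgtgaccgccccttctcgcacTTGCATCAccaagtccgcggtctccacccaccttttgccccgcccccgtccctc
Vldlr, chr19:27216774-27216873, plus strand: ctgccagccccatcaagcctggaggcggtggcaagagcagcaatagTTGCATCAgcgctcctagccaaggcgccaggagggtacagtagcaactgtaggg
Herpud1, chr8:94386271-94386370, plus strand: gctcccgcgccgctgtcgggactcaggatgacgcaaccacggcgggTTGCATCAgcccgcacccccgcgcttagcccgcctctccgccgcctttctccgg

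In scrambled cells the biosynthetic members fell with differentiation while the stress factors did not move as 1 block. Calls below are those of limma at a Benjamini-Hochberg adjusted p under 0.05 over 19938 genes. With 12 arrays 12 of 36 members (33.3%) were lower in RA than in ESC and 0 higher, where 5.66% of all genes were called lower and 8.14% higher. At an unadjusted p below 0.05 there were 25 members. With the 10 arrays left, 25 members (69.4%) were lower and 2 (5.56%) higher, where 20.8% of all genes were lower and 21.8% higher. The median member stood at -0.63 on the log2 scale, against -0.04 for all genes. All 7 serine, glycine and folate enzymes were called lower with 10 arrays (6 with 12), as were all 7 tRNA synthetases (5 with 12), 3 of 4 other amino acid enzymes (1 with 12) and 4 of 7 transporters (0 with 12). Of 11 regulators and stress factors, 4 were called lower and 2 higher with 10 arrays, and 0 either way with 12. The count of 12 fell to 0 when any scrambled or KD1 array was left out (16 to 24 at an unadjusted p below 0.05), and stood at 22 when any KD2 array was left out. With 10 arrays, leaving out each array in turn gave 24 to 27.

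**Figure D1:**
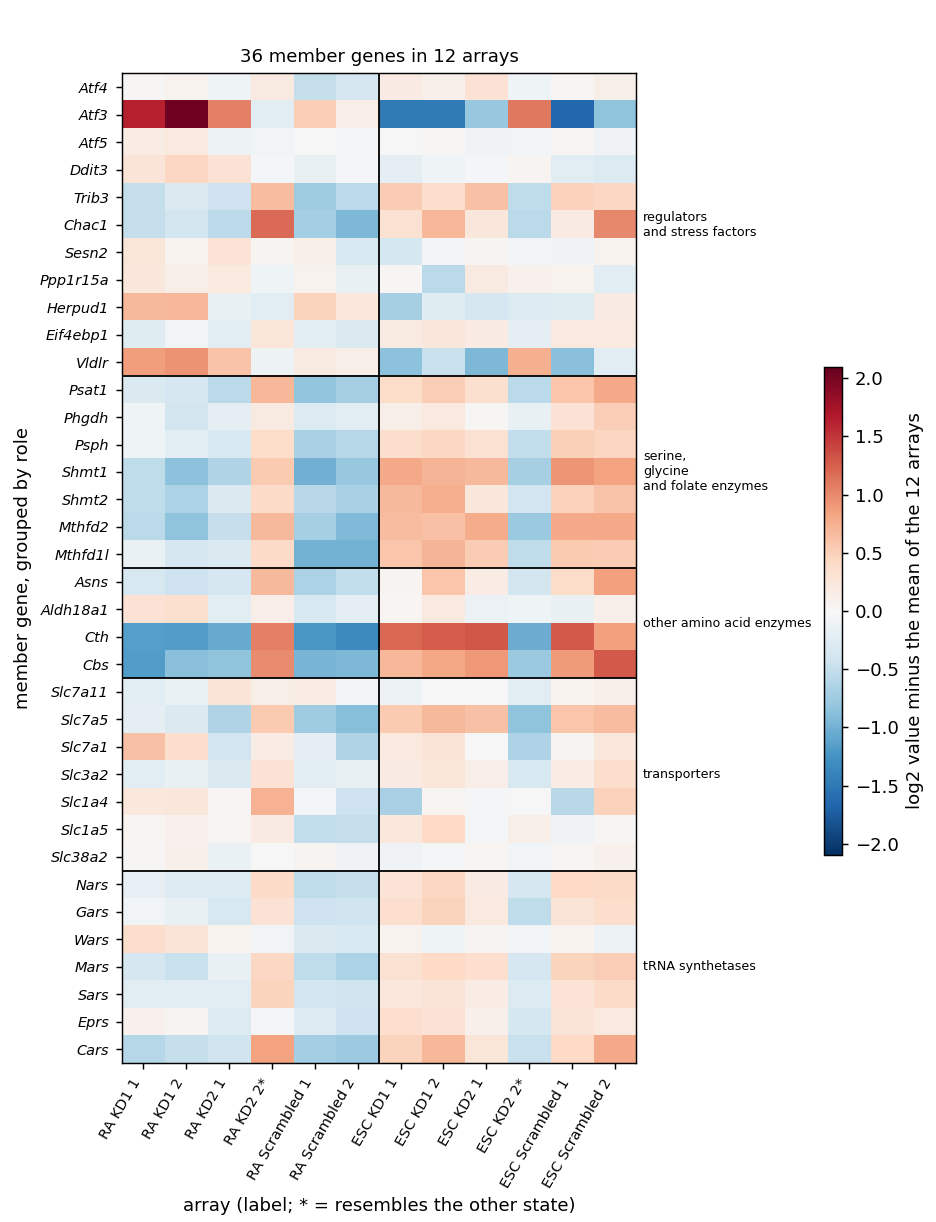
Log2 value of the 36 measured members (rows, grouped by role) in each of the 12 arrays (columns, RA left of ESC), as a difference from the gene's mean over the 12 arrays. An asterisk marks the 2 displaced arrays, whose columns look like the other state, and most enzyme and tRNA synthetase rows are low in RA and high in ESC, except Wars and Aldh18a1, which are highest in RA KD1.

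Over all lines, every one of the 5 RA arrays lay below every one of the 5 ESC arrays for 21 of the 36 members, where 18.7% of all genes did so. For 2 members, Atf3 and Vldlr, every RA array lay above every ESC array, where 18.2% of all genes did so. For these 23 genes the displaced ESC-labelled array lay nearer the RA mean in 23 cases, and the displaced RA-labelled array lay nearer the ESC mean in 22. The genes were picked for separating the states, and the displaced arrays were set aside for resembling the other state. The counts of 23 and 22 thus restate that resemblance and are no separate evidence for it. Within scrambled cells alone, with 2 arrays a state, 26 members did not overlap and were lower in RA (37.3% of all genes) and 4 were higher (32.0%). Within KD1 24 were lower (44.0% of all genes) and 12 higher (30.4%). Atf5, Slc7a11 and Slc38a2 spanned under 0.5 log2 units over the 10 arrays. Their levels differed: over the 12 arrays Slc38a2 read 12.73 to 12.98 and Slc7a11 4.73 to 5.24, below the median value of 7.22. A dim probe set such as that of Slc7a11 may stay flat whatever its RNA does.

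Serine synthesis from glycolysis runs through Phgdh, Psat1 and Psph in that order, and all 3 read lower after differentiation. Psat1, the aminotransferase, read 11.25 and 11.21 log2 units in RA KD1, 10.99 in RA KD2 (12.25 in the displaced array) and 10.73 and 10.87 in RA scrambled cells. In ESC, Psat1 read 11.94 and 12.08 in KD1, 11.89 in KD2 (11.00 displaced) and 12.15 and 12.36 in scrambled cells. The states did not overlap, and within RA the scrambled arrays were the lowest. In scrambled cells Psat1 RNA fell to 36.5% of ESC (log2 -1.46, SE 0.38, limma adjusted p = 0.0455 with 12 arrays; SE 0.10 with 10). Phgdh, the first enzyme, read 9.70 and 9.39 in RA KD1, 9.59 in RA KD2 (9.97 displaced) and 9.49 and 9.56 in RA scrambled cells. In ESC, Phgdh read 9.92 and 9.98 in KD1, 9.81 in KD2 (9.64 displaced) and 10.09 and 10.30 in scrambled cells. Its states also stood apart, and its RA arrays showed no order by line. Phgdh fell to 63.0% of ESC in scrambled cells (log2 -0.67, SE 0.18, limma adjusted p = 0.0465 with 12 arrays; SE 0.14 with 10). Psph, the phosphatase of the last step, fell by 1.12 on the log2 scale (SE 0.30, limma adjusted p = 0.0456 with 12 arrays).

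Serine is split to glycine by Shmt1 in the cytosol and by Shmt2 in mitochondria, and Mthfd2 and Mthfd1l pass the freed carbon along the mitochondrial folate pathway. Shmt1 read 9.76 and 9.42 log2 units in RA KD1, 9.66 in RA KD2 (10.83 displaced) and 9.27 and 9.49 in RA scrambled cells. In ESC, Shmt1 read 11.08 and 10.99 in KD1, 10.97 in KD2 (9.58 displaced) and 11.22 and 11.13 in scrambled cells. All RA arrays lay over 1 log2 unit below all ESC arrays once the displaced pair was set aside. Shmt1 fell to 28.9% of ESC in scrambled cells (log2 -1.79, SE 0.46, limma adjusted p = 0.0438 with 12 arrays; SE 0.14 with 10). Shmt2 read 10.58 and 10.43 in RA KD1, 10.80 in RA KD2 (11.51 displaced) and 10.52 and 10.43 in RA scrambled cells. In ESC, Shmt2 read 11.78 and 11.87 in KD1, 11.35 in KD2 (10.70 displaced) and 11.59 and 11.70 in scrambled cells. The drop was present in each line and smallest in KD2. Shmt2 was the 1 member called lower with 12 arrays in both scrambled cells (log2 -1.17, limma adjusted p = 0.0376) and KD1 (log2 -1.32, limma adjusted p = 0.0203).

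Mthfd2, the mitochondrial methylene-tetrahydrofolate dehydrogenase, read 9.55 and 9.27 log2 units in RA KD1, 9.64 in RA KD2 (10.80 displaced) and 9.42 and 9.20 in RA scrambled cells. In ESC, Mthfd2 read 10.76 and 10.73 in KD1, 10.90 in KD2 (9.35 displaced) and 10.92 in both scrambled arrays. RA and ESC did not overlap and the lines lay close together within each. Its difference in scrambled cells was -1.61 (SE 0.49, limma adjusted p = 0.0547 with 12 arrays; SE 0.13 and called with 10). Mthfd1l, the formate-releasing synthetase, read 9.79 and 9.57 in RA KD1, 9.63 in RA KD2 (10.33 displaced) and 8.94 in both RA scrambled arrays. In ESC, Mthfd1l read 10.51 and 10.63 in KD1, 10.45 in KD2 (9.38 displaced) and 10.48 and 10.46 in scrambled cells. ESC arrays of all lines were alike, while in RA both knockdown lines stood above scrambled cells. Mthfd1l fell to 34.6% of ESC in scrambled cells (log2 -1.53, SE 0.33, limma adjusted p = 0.0379 with 12 arrays; SE 0.12 with 10).

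Cth and Cbs, which turn homocysteine into cysteine, had the largest drops among the members in scrambled cells. Cth read 8.80 and 8.78 log2 units in RA KD1, 8.90 in RA KD2 (11.01 displaced) and 8.74 and 8.61 in RA scrambled cells. In ESC, Cth read 11.17 and 11.22 in KD1, 11.26 in KD2 (8.91 displaced) and 11.25 and 10.82 in scrambled cells. The 3 lines read alike within each state. The difference in scrambled cells was -2.36, or 19.5% of ESC (SE 0.77, limma adjusted p = 0.0646 with 12 arrays; SE 0.15 and called with 10). Cbs read 7.50 and 7.80 in RA KD1, 7.83 in RA KD2 (9.67 displaced) and 7.69 and 7.72 in RA scrambled cells. In ESC, Cbs read 9.37 and 9.49 in KD1, 9.59 in KD2 (7.89 displaced) and 9.56 and 9.96 in scrambled cells. Its RA and ESC arrays were again far apart, and in each state the lines lay within 1 log2 unit. Cbs stood at 24.1% of ESC in scrambled cells (log2 -2.06, SE 0.62, limma adjusted p = 0.0551 with 12 arrays; SE 0.16 and called with 10). Asns, asparagine synthetase, whose promoter match is printed above, read 11.96 and 11.85 in RA KD1, 11.94 in RA KD2 (12.98 displaced) and 11.64 and 11.77 in RA scrambled cells. In ESC, Asns read 12.34 and 12.87 in KD1, 12.44 in KD2 (11.90 displaced) and 12.68 and 13.15 in scrambled cells. The states did not overlap, although replicate arrays of ESC differed by about 0.5. Asns fell to 43.2% of ESC in scrambled cells (log2 -1.21, SE 0.34, limma adjusted p = 0.0478 with 12 arrays; SE 0.18 with 10). Aldh18a1, an enzyme of proline synthesis, was not called for RA against ESC in any line.

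Among transporters, Slc7a5, the light chain of the leucine exchanger, had the largest difference. It read 11.96 and 11.86 log2 units in RA KD1, 11.53 in RA KD2 (12.70 displaced) and 11.40 and 11.26 in RA scrambled cells. In ESC, Slc7a5 read 12.70 and 12.84 in KD1, 12.76 in KD2 (11.31 displaced) and 12.74 and 12.80 in scrambled cells. ESC arrays of the 3 lines agreed within 0.2, and in RA the KD1 arrays were highest and the scrambled arrays lowest. The difference in scrambled cells was -1.44 (SE 0.45, limma adjusted p = 0.0596 with 12 arrays; SE 0.08 and called with 10). Slc3a2, the heavy chain of the same exchanger, stood at -0.46 and was called lower with 10 arrays (limma adjusted p = 0.121 with 12). Slc7a1, the carrier of arginine and lysine, read 10.72 and 10.47 in RA KD1, 9.69 in RA KD2 (10.26 displaced) and 9.91 and 9.47 in RA scrambled cells. In ESC, Slc7a1 read 10.30 and 10.37 in KD1, 10.09 in KD2 (9.44 displaced) and 10.15 and 10.31 in scrambled cells. RA KD1 arrays were above every other array. Apart from the displaced pair, RA arrays of KD2 and scrambled cells were below the ESC arrays. Slc7a1 differed by -0.55 in scrambled cells (SE 0.27, limma adjusted p = 0.167 with 12 arrays; SE 0.16 and called with 10). Slc1a5, the glutamine carrier, was called lower with 10 arrays (-0.48), and Slc7a11, Slc1a4 and Slc38a2 were not called in either fit.

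The tRNA synthetases, which load amino acids onto tRNA, fell in scrambled cells by 0.31 (Wars) to 1.35 (Cars) on the log2 scale in the fit of 10 arrays. Cars, for cysteine, read 9.57 and 9.66 log2 units in RA KD1, 9.75 in RA KD2 (11.01 displaced) and 9.45 and 9.41 in RA scrambled cells. In ESC, Cars read 10.64 and 10.86 in KD1, 10.43 in KD2 (9.69 displaced) and 10.59 and 10.96 in scrambled cells. Its states were apart in every line. Cars fell to 39.3% of ESC in scrambled cells (log2 -1.35, SE 0.38, limma adjusted p = 0.0495 with 12 arrays; SE 0.14 with 10). Mars, Nars, Sars and Eprs were also called lower with 12 arrays, at -1.10, -0.93, -0.76 and -0.59. Wars, for tryptophan, went its own way by line. It read 11.47 and 11.37 in RA KD1, 11.18 in RA KD2 (11.04 displaced) and 10.79 and 10.77 in RA scrambled cells. In ESC, Wars read 11.18 and 11.01 in KD1, 11.15 in KD2 (11.03 displaced) and 11.18 and 11.00 in scrambled cells. ESC arrays of the 3 lines were alike, RA KD1 stood above them and RA scrambled below them. With 10 arrays Wars was called lower in RA in scrambled cells (-0.31) and higher in RA in KD1 (0.32), and with 12 arrays in neither (limma adjusted p = 0.0941 and 0.0932).

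Atf4 itself was not called with 12 arrays. It read 9.59 and 9.63 log2 units in RA KD1, 9.47 in RA KD2 (9.74 displaced) and 9.06 and 9.20 in RA scrambled cells. In ESC, Atf4 read 9.73 and 9.67 in KD1, 9.85 in KD2 (9.46 displaced) and 9.59 and 9.67 in scrambled cells. The RA scrambled arrays were the lowest of all, and the other arrays lay close together. The difference in scrambled cells was -0.50, or 70.5% of ESC (SE 0.17, limma adjusted p = 0.0730 with 12 arrays; SE 0.11 and called with 10). In KD1 it was -0.09, with a 95% interval of -0.35 to 0.17 in the fit of 10 arrays. Trib3, a pseudokinase that binds ATF4, read 7.89 and 8.08 in RA KD1, 7.96 in RA KD2 (9.04 displaced) and 7.64 and 7.83 in RA scrambled cells. In ESC, Trib3 read 8.93 and 8.75 in KD1, 9.01 in KD2 (7.86 displaced) and 8.87 and 8.83 in scrambled cells. The states stood apart in each line. Trib3 was at 46.1% of ESC in scrambled cells (log2 -1.12, SE 0.40, limma adjusted p = 0.0799 with 12 arrays; SE 0.13 and called with 10). Chac1, which degrades glutathione, differed by -1.42 and Eif4ebp1, a brake on cap-dependent translation, by -0.48, and both were called lower with 10 arrays alone.

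Atf3 and Vldlr were the members called higher in RA than in ESC in scrambled cells, both with 10 arrays alone, and 6 of 11 regulators stood above 0 there. Atf3, a stress-induced repressor of the same protein family, read 11.43 and 11.84 log2 units in RA KD1, 10.85 in RA KD2 (9.58 displaced) and 10.32 and 9.94 in RA scrambled cells. In ESC, Atf3 read 8.31 in both KD1 arrays, 9.00 in KD2 (10.90 displaced) and 8.15 and 8.95 in scrambled cells. Apart from the displaced pair, RA arrays were all above ESC arrays, with KD1 on top. Atf3 was higher in RA by 1.58 in scrambled cells (SE 0.61, limma adjusted p = 0.0938 with 12 arrays; SE 0.25 and called with 10). In KD1 it rose 10.1-fold (log2 3.33, SE 0.61, limma adjusted p = 0.0167 with 12 arrays; SE 0.25 with 10). Vldlr, a lipoprotein receptor, read 8.63 and 8.71 in RA KD1, 8.36 in RA KD2 (7.66 displaced) and 7.95 and 7.88 in RA scrambled cells. In ESC, Vldlr read 6.90 and 7.28 in KD1, 6.82 in KD2 (8.51 displaced) and 6.88 and 7.53 in scrambled cells. Its RA arrays, with the same exception, were all above its ESC arrays, with the knockdown lines highest. Vldlr differed by 0.71 in scrambled cells (SE 0.49, limma adjusted p = 0.311 with 12 arrays) and 1.58 in KD1 (limma adjusted p = 0.0635), and both were called with 10 arrays.

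**Figure D2:**
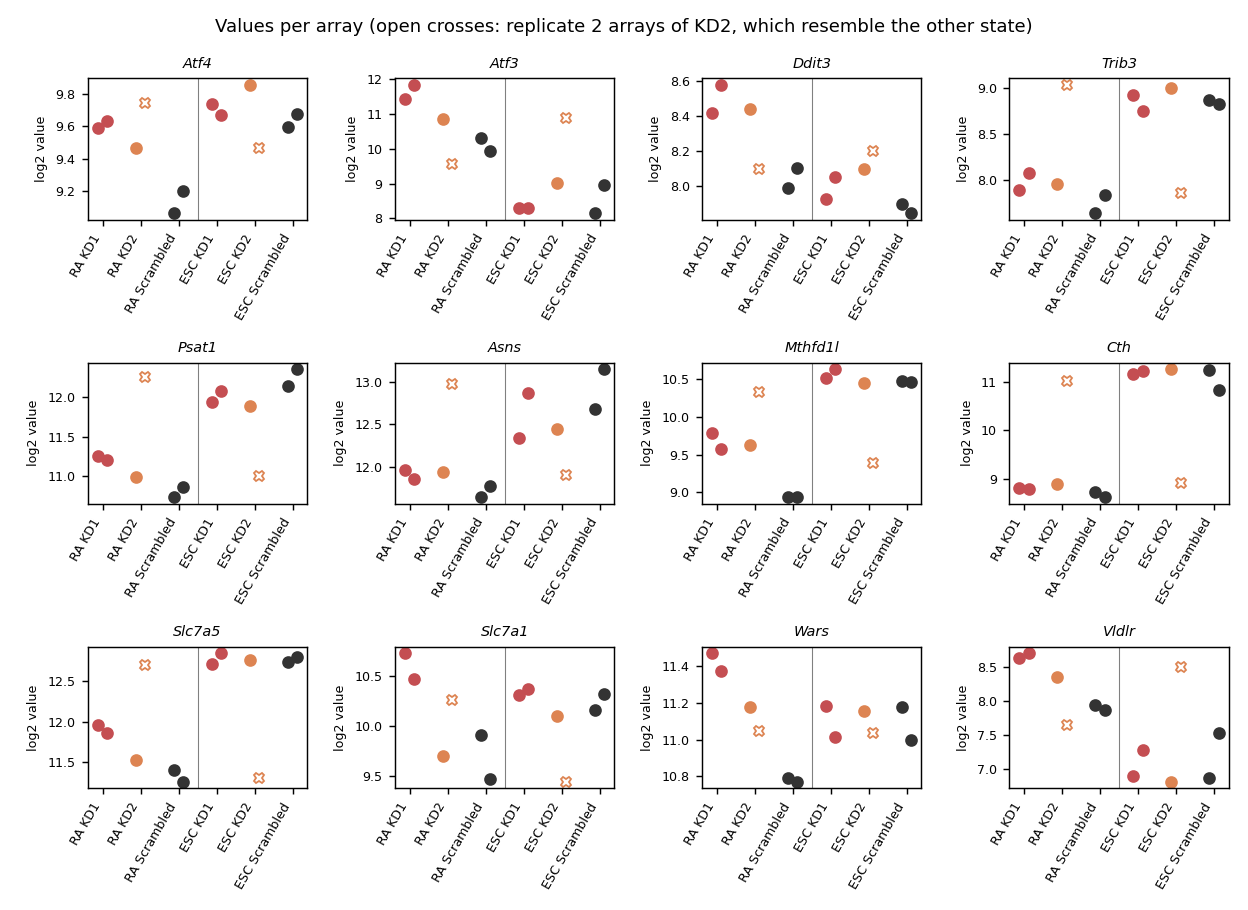
Log2 value of 12 members in each array, by group (RA left of ESC, and KD1, KD2 and scrambled within each), with open crosses for the 2 displaced arrays of KD2. Atf3 and Vldlr are higher in RA, and Psat1, Asns, Mthfd1l, Cth and Slc7a5 are lower in RA. For Atf4, Wars, Mthfd1l, Psat1, Asns, Trib3 and Cth the RA scrambled arrays are the lowest.

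In KD1, enzymes were again called lower in RA than in ESC, and Atf3 and Herpud1 rose. With 12 arrays 1 member was called lower, Shmt2, and 2 higher, Atf3 and Herpud1, where 4.26% of all genes were lower and 7.02% higher. With 10 arrays 21 members (58.3%) were lower and 5 (13.9%) higher, where 20.8% and 20.3% of all genes were. The 5 were Atf3, Vldlr, Herpud1, Ddit3 and Wars. All 7 serine, glycine and folate enzymes and 6 of 7 tRNA synthetases were among the 21. Herpud1, which helps remove misfolded proteins from the endoplasmic reticulum, read 10.69 and 10.71 log2 units in RA KD1, 9.86 in RA KD2 (9.79 displaced) and 10.47 and 10.24 in RA scrambled cells. In ESC, Herpud1 read 9.31 and 9.75 in KD1, 9.66 in KD2 (9.73 displaced) and 9.75 and 10.18 in scrambled cells. RA arrays of KD1 and scrambled cells were above all ESC arrays, while KD2 lay among the ESC arrays. Herpud1 rose 2.24-fold in KD1 (log2 1.17, SE 0.20, limma adjusted p = 0.0130 with 12 arrays). Ddit3, which encodes the stress factor CHOP, read 8.42 and 8.58 in RA KD1, 8.44 in RA KD2 (8.10 displaced) and 7.99 and 8.11 in RA scrambled cells. In ESC, Ddit3 read 7.93 and 8.05 in KD1, 8.10 in KD2 (8.20 displaced) and 7.90 and 7.85 in scrambled cells. The RA knockdown arrays other than the displaced one stood above all the others. Ddit3 differed by 0.51 in KD1 (SE 0.15, limma adjusted p = 0.0616 with 12 arrays; SE 0.12 and called with 10). Leaving out each array in turn gave 0 to 13 members called with 12 arrays and 20 to 26 with 10.

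**Figure D3:**
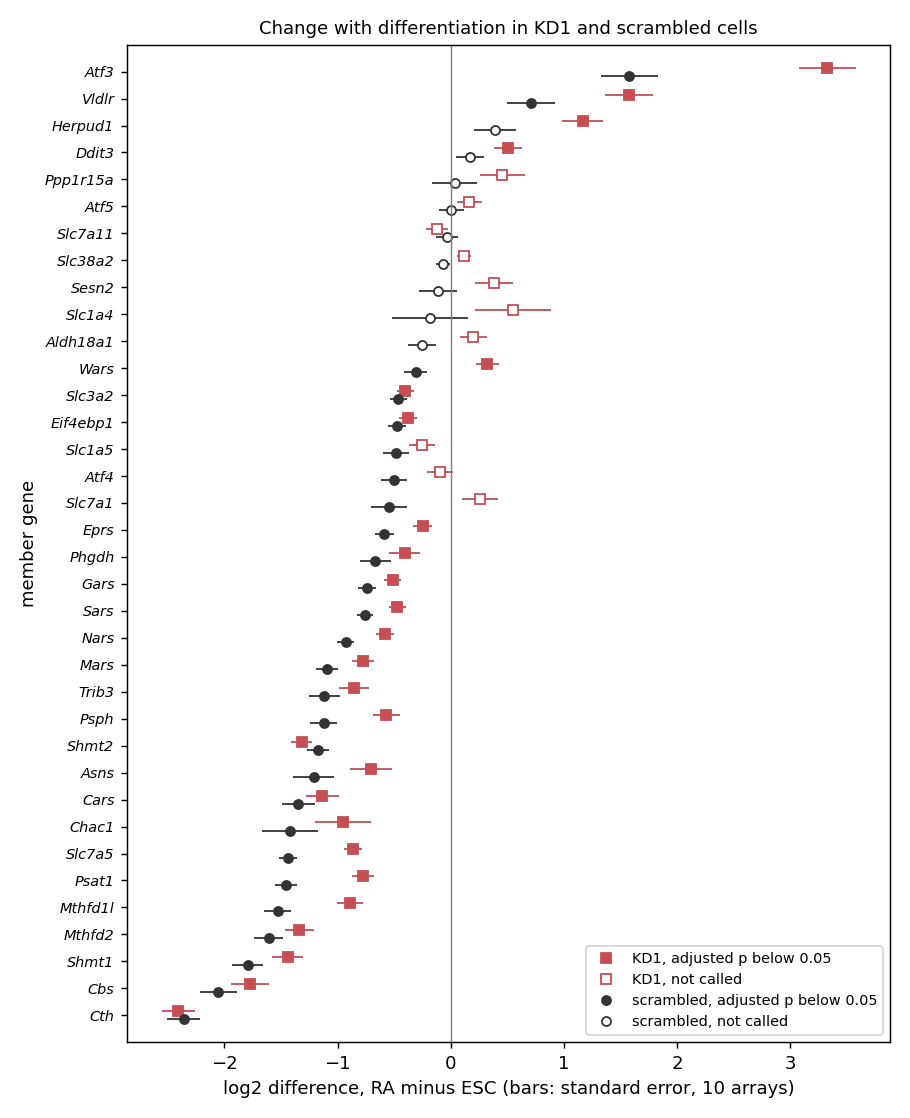
Log2 difference of RA minus ESC for each of the 36 members in KD1 (squares) and scrambled cells (circles), with the standard error from the fit of 10 arrays. Filled symbols passed an adjusted p below 0.05, and most KD1 squares lie to the right of the circle of the same gene.

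KD2, with 1 array per state once the displaced pair was left out, gave 17 members lower and 2 higher (Atf3 and Vldlr), where 9.46% of all genes were lower and 11.0% higher. A single array is there assumed to vary like the other groups. With 12 arrays the KD2 groups mix the states, and limma called 0 members and 0 of 19938 genes, with 1 member at an unadjusted p below 0.05. The median member changed sign with the choice of arrays: it was 0.11 with 12 (29 of 36 above 0) and -0.40 with 10 (26 below 0). Of the 7 serine, glycine and folate enzymes 6 were called lower in KD2 with 10 arrays, all but Phgdh, as were 5 of the 7 tRNA synthetases, all but Wars and Eprs. Cth read 8.90 in RA against 11.26 in ESC in these arrays, and Cbs 7.83 against 9.59.

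In ESC, before differentiation, no member was called between KD1 and scrambled cells without a replicate block. Limma called 0 of 36 with 12 arrays (1 at an unadjusted p below 0.05) and 0 with 10 (3 at an unadjusted p below 0.05), where 0.0201% and 0.843% of all genes were called higher and 0.0451% and 1.08% lower. The median member differed by -0.06 on the log2 scale, against 0.02 for all genes. Both KD1 arrays lay below both scrambled arrays for 10 members (18.9% of all genes) and above them for 5 (26.3%). With the replicate number as a block in the fit of 10 arrays 4 members were called, Asns (-0.31), Psat1 (-0.25) and Herpud1 (-0.43) lower and Slc1a5 (0.35) higher. The share of all genes called with that block is not given here, so the 4 are not set against a background. KD2 against scrambled in ESC also gave 0 members in both fits (4 at an unadjusted p below 0.05 in each), where 0.0752% and 0.271% of all genes were lower and 0.01% and 0.717% higher.

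After differentiation, members were called higher in KD1 than in scrambled cells, most of them in the fit of 10 arrays alone. With 12 arrays 1 member was called higher, Wars (log2 0.64, SE 0.12, limma adjusted p = 0.0304), and 0 lower, where 1.58% of all genes were higher and 0.742% lower. With 10 arrays 15 members (41.7%) were higher and 0 lower, where 5.39% of all genes were higher and 6.69% lower. Of the 36 members 34 stood above 0, with a median of 0.29 against -0.01 for all genes. The 2 KD1 arrays lay above the 2 scrambled arrays for 26 members, where 26.0% of all genes did so, and below them for 1, where 30.6% did so. By role, the 15 were Atf3 (1.51), Vldlr (0.76), Atf4 (0.48) and Ddit3 (0.45) among regulators, and Mthfd1l (0.74), Psph (0.48) and Psat1 (0.43) among serine and folate enzymes. Aldh18a1 (0.59), the transporters Slc7a1 (0.91), Slc1a5 (0.58) and Slc7a5 (0.57), and the synthetases Wars (0.64), Eprs (0.42), Gars (0.32) and Nars (0.30) made up the rest. Cth, Cbs, Shmt2 and Mthfd2 differed by 0.11, -0.05, 0.03 and 0.10 and were not called. With differentiation these had changed by -2.36, -2.06, -1.17 and -1.61 in scrambled cells. Mthfd1l, Psat1 and Slc7a5, which had changed there by -1.53, -1.46 and -1.44, are among the 15, as is Psph (-1.12). Shmt1 (-1.79), Chac1 (-1.42), Cars (-1.35), Asns (-1.21), Trib3 (-1.12) and Mars (-1.10) are not. Any link between the fall and the KD1 difference was not tested. The count of 15 rested on single arrays: it was 3 without RA KD1 replicate 1, 4 without RA KD1 replicate 2 and 6 without either RA scrambled array. The fit without an intensity trend gave 2 members with 12 arrays and 12 with 10. Adjusted p over 35 alternatives ran from 0.000126 to 0.249 for Wars, which was called in 29 of them, and from 5.89e-05 to 1.0 for Slc7a5, called in 14.

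**Figure D4:**
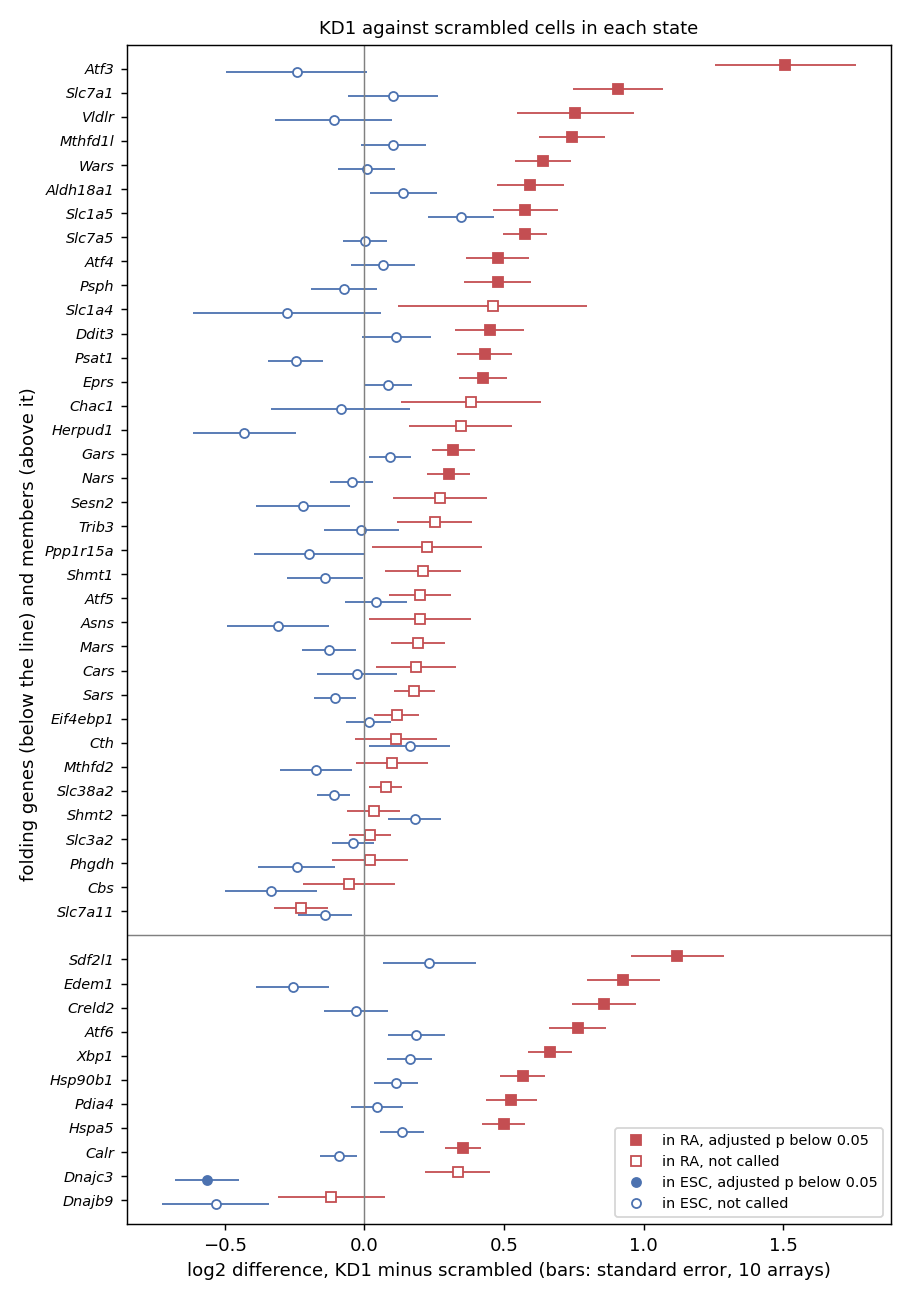
Log2 difference of KD1 minus scrambled cells for each of the 36 members (above the line) and 11 folding genes of the endoplasmic reticulum (below the line), in RA (squares) and in ESC (circles), with the standard error from the fit of 10 arrays. Filled symbols passed an adjusted p below 0.05: 15 members and 9 folding genes, all higher in KD1, in RA, and 1 folding gene, lower in KD1, in ESC.

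Markers of extraembryonic endoderm were higher in RA KD1 as well. All 7 (Gata6, Gata4, Sox7, Sox17, Dab2, Cubn and Lama1) were called higher in RA KD1 than in RA scrambled cells with 10 arrays, and 4 with 12. Their mean level was 12.08 and 12.16 log2 units in RA KD1, 10.34 in RA KD2 (8.56 displaced) and 9.46 and 9.55 in RA scrambled cells. In ESC the mean was 8.22 and 8.13 in KD1, 8.59 in KD2 (10.57 displaced) and 7.56 and 7.47 in scrambled cells. Between KD1 and scrambled cells in ESC, 4 of the 7 markers were called higher with 10 arrays and 0 with 12. There 0.843% and 0.0201% of all genes were higher, and 0 members were called in either fit. The part of such cells in the members' differences was not tested. Of the 7 stem cell markers 2 were called higher and 1 lower in RA KD1 than in RA scrambled cells with 10 arrays, and of 7 markers of retinoic acid differentiation 4 were called lower. Fibroblast markers averaged 7.13 to 7.40 in RA KD1 and 7.57 to 7.70 in RA scrambled arrays. Their differences ran from -1.73 (Postn) to 0.31 (Lum), and 1 of the 5 was called lower and 0 higher with 10 arrays. Of 4 neuron markers 1 was called lower and 0 higher there, and of 4 cardiac and smooth muscle markers 0 were called. Over all genes 5.39% were higher and 6.69% lower with 10 arrays.

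The change with differentiation differed between KD1 and scrambled cells for few single members. The test of that difference gave 0 members with 12 arrays (2 at an unadjusted p below 0.05) and 4 with 10 arrays, all toward higher RNA in KD1, where 0.206% and 2.54% of all genes were higher and 0.0552% and 2.28% lower. These were Atf3 (1.75, SE 0.36), Psat1 (0.68, SE 0.14), Wars (0.63, SE 0.14) and Slc7a5 (0.57, SE 0.11). For Psat1 the change was -0.78 in KD1 and -1.46 in scrambled cells, and for Slc7a5 -0.86 and -1.44. Of the 36 members 33 stood above 0, with a median of 0.34 against -0.03 for all genes. With the replicate number as a block in the fit of 10 arrays 16 members were called. That fit left 2 residual and 7.35 prior degrees of freedom. Its share of all genes is not given here, so the 16 are not set against a background. The count of 4 fell to 0 without ESC KD1 replicate 1 or either RA KD1 array (15 members at an unadjusted p below 0.05 with all 10 arrays), to 1 without either RA scrambled array and to 2 without ESC KD1 replicate 2.

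In RA, KD2 stood between KD1 and scrambled cells for several of these genes. Limma called 0 members for KD2 against scrambled cells with 12 arrays (11 at an unadjusted p below 0.05) and 0 with 10 (9 at an unadjusted p below 0.05), where 0.0251% and 0.326% of all genes were higher and 0.246% and 0.637% lower. The median member stood at 0.24 in the fit of 10 arrays, against 0.03 for all genes, and 32 of 36 were above 0. With 12 arrays the median was 0.50, against 0.04 for all genes, and that fit includes the displaced RA-labelled array. Relative to ESC scrambled cells, the median member stood at -0.005 in the displaced array and -0.57 in RA KD2 replicate 1. The 0.50 and the 11 members thus mix the states with any difference between lines. With the replicate block and 10 arrays 5 were called, Mthfd1l, Slc1a5, Wars and Mars higher and Herpud1 lower. The 7 members called without RA KD2 replicate 1 in the larger fit compare the displaced array with scrambled cells. Comparisons of KD1 and of KD2 with scrambled cells share the scrambled arrays, so their likeness is not an independent result. For the replicate block the share of all genes called is not given here, so its count stands without a background.

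Other genes of the pathway, from a list of 77 of which 66 had a probe set, were counted by the same roles. In scrambled cells 26 were called lower and 15 higher in RA than in ESC with 10 arrays (8 and 2 with 12). Over all genes 20.8% were lower and 21.8% higher with 10 arrays (5.66% and 8.14% with 12), so the 15 higher of 66 lie near that background. Of 8 further serine, glycine and folate genes 6 were called lower with 10 arrays (3 with 12), led by Gldc (-2.87), the decarboxylase of the glycine cleavage system, and 1 higher with 10 arrays, Mthfd2l (1.69; 0 with 12). Of 11 further tRNA synthetases 9 were called lower with 10 arrays and 2 with 12, among them Lars (-1.11) and Tars (-1.07). The transporters went both ways: Slc7a3 (-3.63) and Slc7a7 (-2.53) were called lower with 10 arrays (1 of them with 12), while 5 of 9 were called higher (1 with 12), among them Slc6a9 (0.80) and Slc38a4 (0.70). Bcat1, the cytosolic enzyme that opens branched-chain amino acid breakdown, fell by 1.85 in scrambled cells (limma adjusted p = 0.0319 with 12 arrays). Between RA KD1 and RA scrambled cells 17 of the 66 were called higher and 5 lower with 10 arrays (8 and 0 with 12). Over all genes 5.39% were higher and 6.69% lower with 10 arrays (1.58% and 0.742% with 12). The 17 were 9 folding genes, 4 of 9 amino acid enzymes, 2 of 11 tRNA synthetases and 2 of 18 stress kinases and regulators. The 5 were 2 of 8 serine, glycine and folate genes, 1 of 9 transporters and 2 stress kinases and regulators.

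Most folding genes of the endoplasmic reticulum, a related arm of the stress response, were called higher in RA KD1 than in RA scrambled cells. Limma called 7 of 11 higher with 12 arrays (1.58% of all genes) and 9 with 10 (5.39% of all genes), led by Sdf2l1 (1.12), Edem1 (0.93), Creld2 (0.86) and Atf6 (0.76). Dnajc3 (0.33) and Dnajb9 (-0.12) were not called in either fit. Edem1, which steers misfolded glycoproteins to degradation, read 11.51 and 11.70 log2 units in RA KD1, 10.82 in RA KD2 (10.69 displaced) and 10.66 and 10.69 in RA scrambled cells. In ESC, Edem1 read 10.27 and 10.57 in KD1, 10.76 in KD2 (10.87 displaced) and 10.56 and 10.79 in scrambled cells. Only the RA KD1 arrays stood above the others. With differentiation 10 of the 11 were called higher in KD1 (8 with 12 arrays), where 20.3% of all genes were (7.02% with 12). In scrambled cells 2 were called higher and 1 lower with 10 arrays (0 with 12). There 21.8% of all genes were higher and 20.8% lower (8.14% and 5.66% with 12). The 2 higher of 11 lie near that background. The test of the difference between these changes called 5 higher with 10 arrays (2.54% of all genes) and 0 with 12 (0.206%). Among the 5 were Edem1 (1.18), Dnajc3 (0.90), Creld2 (0.89) and Xbp1 (0.50). Dnajc3 was low in ESC KD1: it read 8.70 and 8.69 there, against 9.16 and 9.36 in ESC scrambled cells. Eif2ak3, the kinase that links this compartment to eIF2, was 0.62 higher in RA KD1 than in RA scrambled cells with 10 arrays (limma adjusted p = 0.127 with 12). It is 1 of 18 listed stress kinases and regulators, which did not rise together. With 10 arrays 2 of the 18 were called higher and 2 lower, where 5.39% of all genes were higher and 6.69% lower. Of the 18, 7 stood above 0 and 11 below, with a median of -0.015. The extraembryonic endoderm markers above were higher in RA KD1 as well, and their part in the folding genes' differences was not tested.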

How the data were processed

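RNA of 12 samples in 6 labelled groups was measured on 1-colour arrays. The authors deposited log2 values, which the submitters' processing notes credit to RMA (version not stated). The table held 35556 probe sets, of which the platform annotation listed 23410, 21789 of them with 1 symbol. Array medians lay between 7.17 and 7.24, and the number of arrays limits the precision. The members and lists were chosen with earlier results of these data known. With limma 3.58.1 (R 4.3.3), a model of 6 group means was fitted over the 12 arrays with an intensity trend (6 residual and 2.76 prior degrees of freedom). Benjamini-Hochberg adjustment ran over 19938 genes in each of 8 comparisons. The fit without the 2 displaced arrays left 4 residual and 4.93 prior degrees of freedom. The fit was also run on simulated arrays with equal group means, apart from genes changed in RA KD1. These held no displaced arrays, state difference or replicate effect, so that run does not bear on the spread seen here.

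Array values were printed for Atf4, Asns, Psat1, Phgdh, Ddit3 and Trib3, and for members among the 4 largest called changes each way in a comparison, in either fit. Other pathway genes were named from a list written by role, at most 4 called per role and comparison. Edem1 was given by array, Dnajc3 by array in ESC, and the uncalled Dnajc3 and Dnajb9 named, after their values were seen.

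The labels number the replicates but give no shared day. Replicate differences correlated at 0.141 to 0.633 over 6 pairs of groups within a state and at -0.864 to 0.105 over 9 pairs between states. Pairs with a KD2 group carry the displaced arrays' state difference. The within-state pairs free of it, scrambled with KD1, gave 0.633 in ESC and 0.150 in RA, and on all 6 the number was taken as a block within each state. The alternatives were replicate blocks, array weights, no intensity trend, genes above the median value of 7.22, median centring, quantile normalization, averaged probe sets and leaving out each array. Figures were drawn with matplotlib 3.10.9.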

Additional observations from a re-analysis of the deposited data

Results flagged for a closer look

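In the fit of 10 arrays the change with differentiation differed between KD1 and scrambled cells by limma's interaction test for 4 members. For Atf3 the difference was 1.75 on the log2 scale, from 3.33 in KD1 and 1.58 in scrambled cells (adjusted p = 0.0266, and 0.00245 to 1.0 over 35 alternatives). Psat1 gave 0.68 (adjusted p = 0.0270, and 0.00154 to 1.0 over the alternatives). Wars gave 0.63 (adjusted p = 0.0401, and 0.00214 to 0.732 over the alternatives), with a change of 0.32 in KD1 and -0.31 in scrambled cells. Slc7a5 gave 0.57 (adjusted p = 0.0225, and 0.00111 to 1.0 over the alternatives). With all 12 arrays the adjusted p was 0.690 for Atf3, 0.909 for Psat1, 0.252 for Wars and 0.958 for Slc7a5. Each difference has 2 KD1 and 2 scrambled arrays per state.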

How the results depend on the processing

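Numbers of members called moved with the choice of arrays. Over 72 called results for single members, all from scrambled and KD1 comparisons, 0 of 2520 values under the alternatives changed sign, but dropping KD2 arrays or changing the trend or gene filter leaves those estimates as they are. For RA against ESC in KD2 directions did turn: the 7 serine, glycine and folate enzymes had a median of 0.10 with 12 arrays (6 above 0) and -0.82 with 10 (0 above 0). All 16 called with 12 arrays were also called with 10. For RA against ESC in scrambled cells the 12 called became 27 with 10 arrays, 29 with 10 arrays and the replicate block within each state, 0 with a replicate block across states (24 at an unadjusted p below 0.05), 25 with array weights, and 27 with 10 arrays and no trend or genes above the median. For KD1 the 3 became 26, 5 with the block within each state, 32 with 10 arrays and that block, 25 with weights, 25 with 10 arrays and no trend and 26 with genes above the median. For KD2 the 0 became 19, 23 with the block, 16 with no trend and 20 above the median, all with 10 arrays. For KD1 against scrambled in RA the 1 became 15 with 10 arrays, 17 with the block, 12 with no trend and 15 above the median, and 9 with weights and 2 with no trend in 12 arrays. For the difference between the changes the 0 became 4, 16 with the block, 1 with no trend and 4 above the median with 10 arrays, and 1 with weights in 12. The block with 10 arrays gave 4 for KD1 and 5 in RA for KD2 against scrambled cells where 0 were called, and moved no other count within a state by over 1.5 times. A block with the RA KD2 numbers crossed called 19 in scrambled cells and 9 in KD1. Apart from the fit of 10 arrays, shares of all genes are not given for the alternatives. Their counts of members thus stand without a background. Leaving out 1 of 12 arrays gave 0 to 22 in scrambled cells, 0 to 13 in KD1, 0 to 1 for KD1 and 0 to 7 for KD2 against scrambled in RA. Leaving out 1 of 10 gave 24 to 27 in scrambled cells, 20 to 26 in KD1, 16 to 21 in KD2 (18 without either ESC KD1 array or RA scrambled replicate 2), 3 to 15 for KD1 against scrambled in RA (14 without either ESC KD1 array, 6 without either RA scrambled array) and 0 to 5 for the difference. The larger counts with 10 arrays go with smaller standard errors, since the displaced arrays no longer enter the spread; other causes were not tested. Signal over background was not assessed here.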
